A study of Drosophila melanogaster with 2 samples.

Results

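The regions described here are binding peaks of Rough that lay between transcript starts of 2 protein-coding genes read away from each other. Rough is a homeodomain transcription factor, encoded by *ro* and best known for patterning the compound eye of the fly. A peak was a member when its summit, the point of highest signal, lay between the start of a minus-strand transcript on its left and that of a plus-strand transcript on its right, each no more than 500 bp away. Of the 1969 peaks in the thresholded list made from both replicates together, 269 met this rule. They were 14.3% (95% Wilson interval 12.8 to 15.9) of the 1883 peaks on the chromosome arms, and 33.3% (30.2 to 36.7) of the 807 peaks within 500 bp of a protein-coding start. The other 538 of those 807 peaks are called other promoter peaks here, 1076 peaks lay farther from any protein-coding start, and 86 lay on unplaced sequence. The source was a single group of *Drosophila melanogaster* embryos, kept whole and aged 0 to 24 h, from a strain with an inserted *ro*-eGFP transgene, so that each binding value is an average over all cell types and ages present. Chromatin was broken by sonication to fragments of 200 to 800 bp and precipitated with an antibody against GFP. The labels name 2 biological replicates, and libraries of input DNA were not analysed here. Read totals are not in the peak lists, so the depth is unknown and the precision of a peak's value rests on the agreement of these 2 libraries.

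In a divergent pair, a pair of neighbouring genes lie head to head on opposite strands, and the DNA between their starts holds the core promoter of each. Such pairs are common in the compact fly genome and often consist of housekeeping genes, which most cells transcribe. Homeodomains typically bind short A/T-rich words, of which TAATTA is the best known core, and promoters of housekeeping genes are known for other words, such as TATCGATA, bound by DREF.

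The strongest members are shown first, because they give the DNA on which the summits sat. Each line holds the summit and 50 bases on each side of it, plus strand, 5′ to 3′, on dm6. The 8 windows belong to the strongest members whose interval held no further protein-coding start, in order of signal value. Capitals mark TAATTA and, on either strand, CAAATTA, a word taken from a scan made after the values were seen.
CG7601-CIA30 (chr3R:29736790-29736890): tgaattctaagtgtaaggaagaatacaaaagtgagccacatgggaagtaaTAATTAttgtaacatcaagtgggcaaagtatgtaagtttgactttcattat
Tcs5-CHMP2B (chr3L:5139441-5139541): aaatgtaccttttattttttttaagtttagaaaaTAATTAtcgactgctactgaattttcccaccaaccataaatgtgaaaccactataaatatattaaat
Art3-mRpS10 (chr3R:15229479-15229579): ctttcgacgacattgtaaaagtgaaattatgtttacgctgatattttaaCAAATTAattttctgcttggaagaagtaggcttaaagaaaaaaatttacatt
CG5611-Mtl (chr3R:27636151-27636251): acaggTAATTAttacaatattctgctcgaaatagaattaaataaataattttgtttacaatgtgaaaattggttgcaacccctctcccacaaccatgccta
mRpS23-CenG1A (chr2L:13835407-13835507): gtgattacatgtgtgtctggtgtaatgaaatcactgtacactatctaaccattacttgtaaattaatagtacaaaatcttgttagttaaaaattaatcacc
CG7183-CG7988 (chr3R:18220366-18220466): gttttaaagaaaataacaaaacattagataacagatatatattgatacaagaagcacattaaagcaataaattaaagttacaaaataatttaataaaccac
Reps-l(2)gd1 (chr2L:11106781-11106881): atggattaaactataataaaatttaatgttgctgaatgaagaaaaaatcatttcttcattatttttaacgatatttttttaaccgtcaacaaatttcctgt
CG13390-CG17294 (chr2L:8376832-8376932): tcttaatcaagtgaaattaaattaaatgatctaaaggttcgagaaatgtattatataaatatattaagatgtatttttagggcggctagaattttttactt
TAATTA stood in 3 of the 8 windows, CAAATTA in 1, and neither word in 4. All 8 were rich in A and T, from 68.3% to 80.2% of the bases.

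The strongest member, with a signal value of 969, lay between *CG7601* and *CIA30*, a gene for an assembly factor of mitochondrial complex I. The signal value is the authors' measure of the strength of a peak and has its own scale in each list. This peak had 506 in replicate 1 and 479 in replicate 2. Its summit lay 95 bp from the *CG7601* start and 125 bp from the *CIA30* start. The next was the peak between *Tcs5*, which encodes a kinase of a tRNA-modifying complex, and *CHMP2B*, an ESCRT-III gene of endosomal sorting, with 874 in the pooled list, 408 in replicate 1 and 452 in replicate 2. Between *Art3*, an arginine methyltransferase gene, and *mRpS10*, a mitochondrial ribosomal protein gene, the signal value was 803, with 429 and 378 in the replicates. These peaks ranked 4, 6 and 8 among all 1969, and all 3 were thresholded peaks in both replicates.

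Further strong members lay beside genes of transcription and mitochondrial translation, among others. The peak between *Chro*, for a chromatin protein of the interbands of polytene chromosomes, and *Ssl1*, for a subunit of the transcription factor TFIIH, had 738, with 460 and 288 in replicates 1 and 2. The peak between *CG5611* and *Mtl* had 723, with 359 and 321. At *mRpS23* and *CenG1A*, whose products are a mitochondrial ribosomal protein and an Arf GTPase-activating protein, the value was 679, with 315 and 369. Replicate 1 was the higher in the first 2 of these 3 peaks and replicate 2 in the third.

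Among the rest of the 15 strongest were *mRpL23*–*CG9004* (621), *CG7183*–*CG7988* (544), *Reps*–*l(2)gd1* (515) and *CG13390*–*CG17294* (507). The product of *l(2)gd1* acts in endosomal traffic of Notch. *Atat*–*Shc* had 489, and its genes encode an α-tubulin acetyltransferase and an adaptor of receptor tyrosine kinases. *CG1275*–*Elp5* had 454, and *Elp5* encodes an Elongator subunit. *CG3437*–*CG3552* and *CG8372*–*CG8360* both had 444, and *Pdrg1*–*Pal1* had 442, with *Pal1* coding for an enzyme of peptide amidation. All 15 lay in the thresholded lists of both replicates, and replicate 1 had the higher value in 10 of them. Their starts were 215 to 492 bp apart, and 14 of the 15 summits lay in the middle part when the interval was cut into 3 equal parts.

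**Figure D1:**
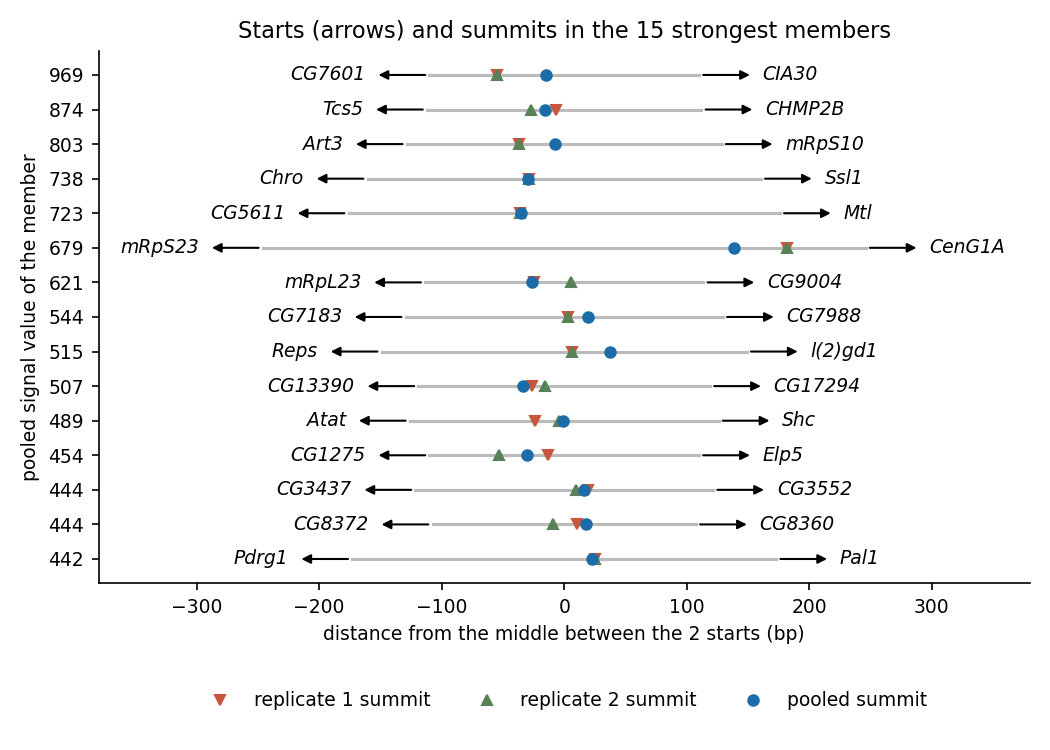
Map of the 15 strongest members, centred on the middle between the starts (x axis, bp) and ordered by pooled signal value (y axis). Arrows give the direction of transcription, and symbols the summits in the pooled list and in each replicate. The replicate summits are drawn from rounded coordinates, so their places are approximate and distances between them cannot be read from the map. Of the pooled summits, drawn without rounding, 14 of 15 lie in the middle of 3 equal parts. That of *mRpS23*–*CenG1A* lies 107 bp from the *CenG1A* start.

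The weakest members were mostly second peaks in an interval that already held one. The value was 58.0 at *Prx6a*–*Sbat*, with 34.3 and 36.5 in replicates 1 and 2, and *Prx6a* encodes a peroxiredoxin. The 4 values below it were 56.6 at *Acbp1*–*Piezo*, 26.0 at *Taf2*–*CalpB*, 3.59 at *PGS1*–*gwl* and 2.53 at *Vha68-1*–*mTor*. Each of these 4 overlapped a stronger candidate in the same interval, whose values were 157, 102, 111 and 68.6 in the same order. *Hrd3*–*PTPMT1* was the fifth pair with 2 members, at 221 and 116. The 269 members thus lay in 264 distinct gene pairs with 547 genes, of which 166 (30.3%) carry only a CG or CR number as a name. In 47 members (17.5%, 13.4 to 22.5) a further protein-coding start lay between the flanking starts used.

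The limit of 500 bp cut through a sparse range. The members with the farthest start were *CG14968*–*ZnT63C*, *CG12974*–*pzg* and *CCT8*–*CG30349*, at 497, 488 and 484 bp, with signal values of 206, 122 and 95.1. Just outside lay *Mpc1*–*CG42613*, *Adk2*–*RpS12* and *CG10804*–*CG10802*, at 503, 521 and 525 bp, with 71.7, 78.3 and 112. The starts of a member were at least 52 bp apart, at *CG32022*–*CG6511*, followed by 62 bp at both *CG10383*–*CG10338* and *CG6005*–*CG14286*. At the other end were *dpr14*–*spidey* with 645 bp, *Fer1HCH*–*Fer2LCH*, the ferritin heavy and light chain genes, with 652 bp, and *CG12974*–*pzg* with 663 bp.

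Members had higher signal values than other promoter peaks over the whole list, but not among the stronger peaks. The median was 126 in members (quartiles 92.4 and 200.0), 112 in other promoter peaks (82.2 and 174) and 94.7 away from starts (73.6 and 128). The members' median was 13.9 above that of other promoter peaks, or 1.12 times as high. Drawing a member and an other promoter peak in every possible combination, the member was higher in 55.9%. Computed in each replicate's own thresholded list, the difference was 5.26 for replicate 1 and 4.32 for replicate 2. It turned to -4.89 among peaks at or above the list's median signal and to -3.93 among peaks with a q value of at most 0.05.

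Members were scarce among the weakest peaks. Of the strongest 100 peaks 27 were members, of the strongest 500 there were 112 (22.4%, 19.0 to 26.3), and of the weakest 500 only 35 (7%, 5.08 to 9.58). Over all peaks on the arms the members' share was 14.3%. Other promoter peaks leaned the same way. They were 43% of the strongest 100, 36.6% of the strongest 500 and 23.8% of the weakest 500, against 28.6% over all. A q value above 0.05 was listed for 36.8% of members and 47.0% of other promoter peaks, a difference of -10.2 percentage points (95% Newcombe interval -17.2 to -2.98). Peaks of a shared pair of libraries are not replicates, so these intervals cover the counting of peaks only and no p-value was computed.

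The replicates' own lists held 205 members (76.2%) in replicate 1 and 179 (66.5%) in replicate 2, where the shares of the whole list were 66.0% and 53.1%. Both held 148 members, or 55.0% (49.0 to 60.9), where the share over the whole list was 39.3%, and 33 members (12.3%) were in neither, against 20.1% of the whole list. For other promoter peaks the share in both was 48.3%, and the difference of 6.69 points had an interval of -0.622 to 13.9, which includes 0. It left out 0 under 3 alternatives: 14.7 (6.08 to 22.9) with each start within 250 bp, 8.002 (1.34 to 14.5) within 1000 bp, and 7.62 (0.311 to 14.8) when the replicate's summit had to lie within 100 bp. Away from starts the share was 31.4%, 23.6 points lower than in members (17.0 to 30.0).

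A candidate in both ranked lists was found for 260 members. Their median signal value was 69.7 in replicate 1 and 59.5 in replicate 2, and the members kept much of their order between the replicates (Spearman's rank correlation 0.66). The correlation was 0.57 in 490 other promoter peaks and 0.42 in 977 peaks away from starts. These are descriptions over peaks of the same 2 libraries, and the classes differ in their range of signal. The summits of the replicates lay a median of 28 bp apart in members, 29 bp in other promoter peaks and 30 bp away from starts, so the 3 classes had like distances.

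**Figure D2:**
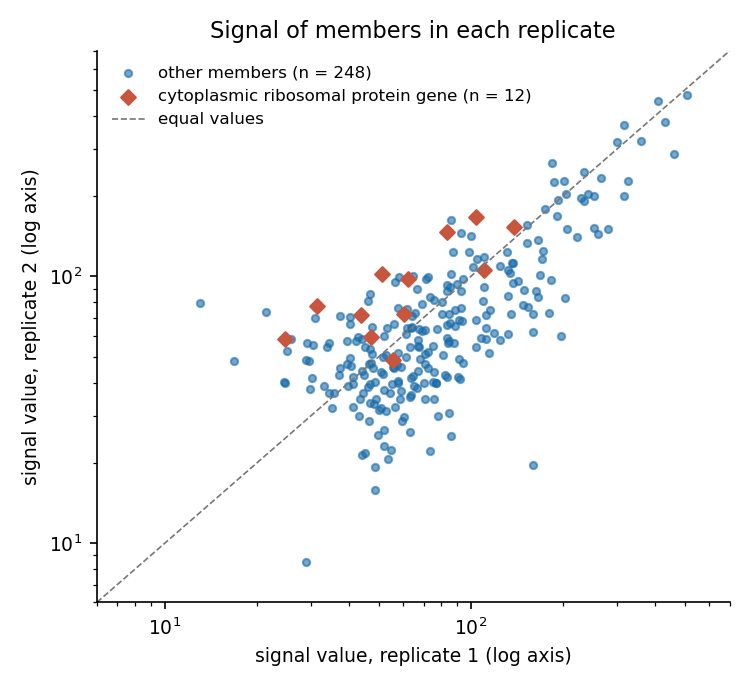
Signal value of the 260 members with a candidate in both ranked lists, in replicate 1 (x) and replicate 2 (y), on log axes with a dashed line of equal values. Diamonds are the 12 members beside a cytoplasmic ribosomal protein gene, of which 2 lie below the line, where replicate 1 is higher.

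Candidates between divergent starts passed the authors' threshold more often than candidates elsewhere. The pooled ranked list, from which the thresholded list was taken, had 956 candidates at a member's position, and 269 of them, 28.1% (25.4 to 31.1), were thresholded peaks. Over all 144610 candidates the share was 1.36%. At other promoter positions it was 3.61% (538 of 14910), and away from starts 0.862%. The members' share lay 24.5 points above that of other promoter candidates (21.8 to 27.5). In replicate 1 the shares were 27.7% and 4.34%, and in replicate 2 they were 21.6% and 2.53%. Other promoter candidates include those downstream of a start, whereas a member's position is upstream of both flanking starts. The 2 classes thus differ in position as well as in a divergent partner, and the part of each was not tested.

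Counted from the annotation, most divergent pairs had no peak. There were 2511 pairs of adjacent divergent protein-coding starts up to 1000 bp apart, and 244 of them, 9.72% (8.62 to 10.9), had a summit between the starts. A start with such a partner had a summit in the 500 bp upstream in 464 of 5022 cases (9.24%). A start with no partner had one in 458 of 13240 (3.46%), a difference of 5.78 points (4.94 to 6.66). A summit between paired starts can count for both of them, so these starts are not independent.

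Pairs with starts more than 200 and up to 400 bp apart carried a peak most often. Of the pairs up to 200 bp apart, 17 of 760 (2.24%) had a summit between the starts, against 148 of 891 (16.6%) above 200 and up to 400 bp and 79 of 860 (9.19%) above 400 and up to 1000 bp. The highest share stood in the class of 251 to 300 bp, with 56 of 291 pairs (19.2%, 15.1 to 24.2), and in the class of 1 to 50 bp it was 0 of 173, with an upper Wilson bound of 2.17%. The middle group exceeded the first by 14.4 points (11.7 to 17.1) and the last by 7.42 (4.30 to 10.5). These distance classes were drawn after the values were seen.

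A short interval is a smaller target for a summit. Pairs were also counted by whether their middle lay inside a peak, which does not require a summit in the interval. The shares were then 6.97% (5.37 to 9.01), 16.4% (14.1 to 19.0) and 5.35% (4.03 to 7.06) in the 3 groups. This count can miss a peak near either start of a long interval. At 801 to 1000 bp, 11 of 157 pairs had a summit between the starts and 0 had their middle in a peak. The count of middles therefore does not settle how the first group compares with the last. The middle group had the highest share by either count.

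**Figure D3:**
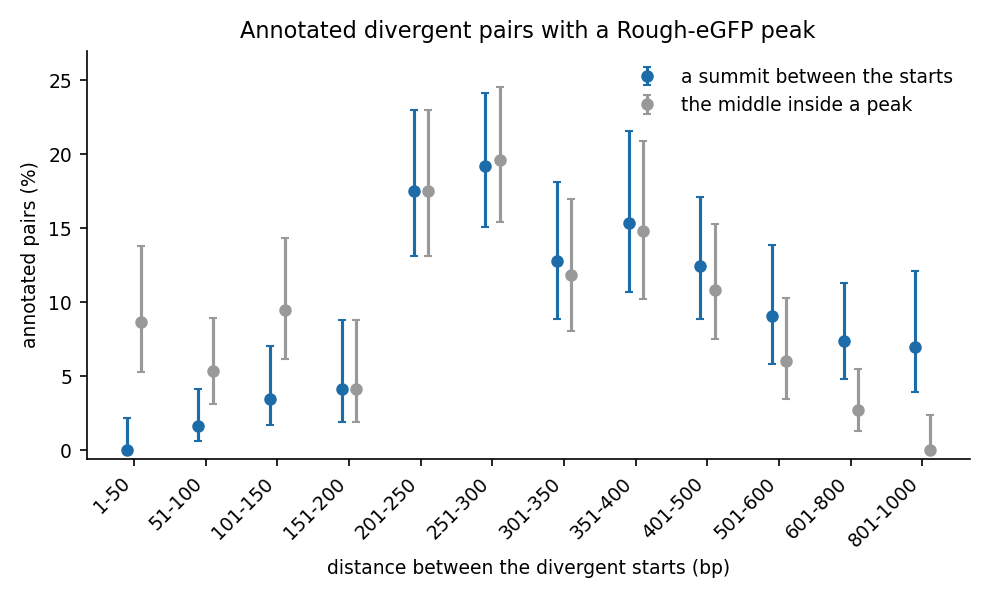
Share of the annotated divergent pairs (y, %) by distance between their starts (x, bp), with 95% Wilson intervals. Blue points count a summit between the starts and grey points a middle inside a peak; both are highest at 251 to 300 bp, with 19.2% and 19.6%.

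By chromosome, the X stood lower than the large autosomal arms. A peak lay in 20 of its 397 pairs (5.04%, 3.28 to 7.65), against 9.59% on 2L, 8.63% on 2R, 12.6% on 3L and 11.7% on 3R. The 4 autosomal arms together had 10.7%, 5.62 points above the X (2.72 to 7.86). Chromosome 4 had a peak in 0 of 12 such pairs, with an upper Wilson bound of 24.2%.

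By the rule every summit lay upstream of both genes. The median distance between the starts of a member was 298 bp (quartiles 249 and 393), close to the 297 bp of all annotated pairs, whose quartiles of 156 and 494 were wider. The nearer start lay a median of 100 bp from the summit (67 to 131) and the farther one 193 bp (151 to 289). The plus-strand start was the nearer in 143 members (53.2%, 47.2 to 59.0). The share varied with spacing. It was 35% (7 of 20, 18.1 to 56.7) up to 200 bp and 44.4% (35.8 to 53.5) at more than 200 and up to 300 bp. At more than 300 and up to 400 bp it was 60.3% (48.4 to 71.1), and above 400 bp 67.2% (55.0 to 77.4, 43 of 64). Of the 538 other promoter peaks, 451 had their summit upstream of the nearest start, at a median of 191 bp.

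With the interval cut into 3 equal parts, the middle part held 143 of the 269 summits, likewise 53.2%. Among the 687 candidates between divergent starts that missed the threshold the share was 41.3%, 11.8 points lower (4.79 to 18.7). In members with starts more than 200 and up to 300 bp apart it was 67.5% (79 of 117). It was 30% (6 of 20, 14.5 to 51.9) up to 200 bp, 44.1% (30 of 68) above 300 and up to 400 bp, and 43.8% (28 of 64) above 400 bp.

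The replicates differed in this position. For replicate 1, 138 of the 220 thresholded summits between divergent starts lay in the middle part (62.7%, 56.2 to 68.8), and for replicate 2 it was 89 of 200 (44.5%, 37.8 to 51.4), a difference of 18.2 points (8.69 to 27.3). The nearer start was under 50 bp away in 8.64% of the summits of replicate 1 and 19.5% of those of replicate 2. Over the same 260 members, with the summit taken from each ranked list, the shares in the middle part were 58.5% and 43.8%. The median peak width was 356 bp among replicate 1 peaks and 276 bp among replicate 2 peaks, and its part in the difference was not tested.

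**Figure D4:**
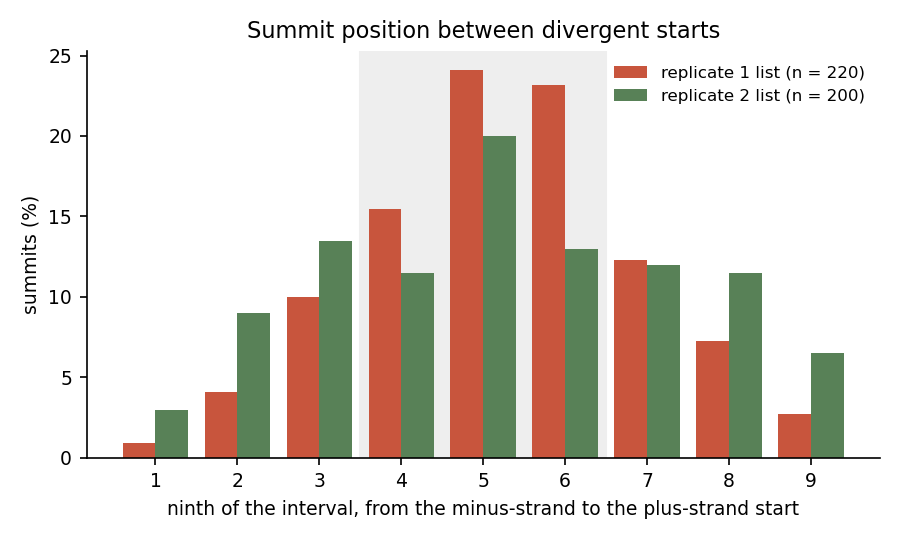
Share of summits (y, %) in each ninth of the interval from the minus-strand start (left) to the plus-strand start (right), for the thresholded list of each replicate; the grey band is the middle of 3 equal parts. It holds 62.7% of the 220 summits of replicate 1 and 44.5% of the 200 of replicate 2.

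The DNA under the summits of members was richer in A and T than under other promoter peaks. In windows reaching 50 bp to each side the mean A/T content was 70.3% ± 8.72 (SD, n = 269 windows), against 65.9% ± 10.7 in 538 other promoter windows and 64.3% ± 11.0 in 1076 windows away from starts. Windows at the middle of divergent pairs without a peak were taken for 1852 of the 2267 such pairs, whereas all members were kept. They had 68.3% ± 9.70 (n = 1852), and 71.3% ± 8.55 where the starts were more than 200 and up to 400 bp apart (n = 743). The 185 members of that spacing had 71.4% ± 8.37, a mean within 1 SD of that of the peakless pairs.

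Words of known promoter and homeodomain sites were counted in the same windows on both strands. TAATTA stood in 35 members (13.0%, 9.51 to 17.6), close to 11.9% of other promoter peaks and 12.3% of peakless pairs, and above 8.74% away from starts by 4.28 points (0.318 to 9.08). With starts more than 200 and up to 400 bp apart, it stood in 13.0% of 185 members and 16.2% of 743 peakless pairs, a difference of -3.18 points (-8.15 to 2.95). TATCGATA stood in 7 members (2.60%) and 1.12% of other promoter peaks, a difference of 1.49 points with an interval of -0.375 to 4.23. Those 7 included the members at *RpL41*, *RpL28* and *RpL19*, which code for cytoplasmic ribosomal proteins, and *MED17*, a Mediator subunit gene. The interval left out 0 in windows reaching 100 bp to each side (5.20 points, 2.40 to 8.91), in the conservative list (2.14, 0.250 to 5.03) and with each start within 1000 bp (2.18, 0.560 to 4.63). With each start within 250 bp the difference was -0.542 (-2.69 to 2.79), and against peakless pairs of the spacing above 200 and up to 400 bp it was 0.276 (-1.27 to 3.37).

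CGATA, which is contained in TATCGATA and is the core bound by the insulator protein BEAF-32, stood in 19.0% of members, 15.1% of other promoter peaks and 18.5% of peakless pairs. In the spacing above 200 and up to 400 bp its shares were 18.4% of members and 14.3% of peakless pairs (difference 4.11 points, -1.50 to 10.7). CATCNCTA, a word of housekeeping core promoters, stood in 8 members (2.97%), in 1.86% of other promoter peaks and in 1.13% of peakless pairs, 1.84 points below the members (0.265 to 4.65). In the same spacing it stood in 7 of 185 members (3.78%) and 2 of 743 peakless pairs (0.269%), a difference of 3.51 points (1.45 to 7.34). Windows of members were centred on the summit, whose nearer start was a median of 98 bp away at this spacing. Those of peakless pairs were centred on the middle, the point farthest from both starts. Every comparison of words with peakless pairs has this difference in placement, and its part was not tested. GAGAG, the site of GAGA factor, stood in 5.58% of members, 8.74% of other promoter peaks and 11.4% of peaks away from starts, the last difference being -5.86 points (-8.83 to -2.01). GGTCACAC, part of the site of M1BP, was found in 0.743% of members, CAGCTG in 2.97% and CACGTG in 1.12%. Among other promoter peaks these 3 words stood in 0.929%, 2.23% and 0.372%, with intervals of every difference that include 0. A word found in a window is a match of letters and does not show which protein was bound there.

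Cytoplasmic ribosomal protein genes and genes of chromatin proteins had the largest shares of paired genes beside a member among the 19 lists. The gene lists were chosen with earlier results of these data known, and no test of a list was made. They were made by matching gene names, so a list can miss genes of its kind. Counts and medians below hold for the listed genes only. Of the 4993 genes with a divergent partner, 545 flanked a member, which is 10.9%. Of 87 cytoplasmic ribosomal protein genes 52 had a partner, and 12 of these flanked a member (23.1%, 13.7 to 36.1). At *RpS27*–*Nup37*, the latter a nuclear pore gene, the signal value was 290, with 104 in replicate 1 and 167 in replicate 2. *RpL34b*–*CG8132* had 282, with 138 and 152, and *Ripalpha*–*RpL7* had 222, with 83.4 and 146. *RpL32*–*CG7943* had 214, with 110 and 105, and so was the only one of these 4 with the higher value in replicate 1.

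The other 8 were *RpS21*, *RpL41*, *RpS20*, *RpL14*, *RpL28*, *RpL19*, *RpL31* and *RpLP0*, from 155 down to 65.8. Across the 12, replicate 1 had the higher value in 2, whereas it was the higher in 167 of the 260 members with both values (64.2%, 58.2 to 69.8). All 12 passed the threshold in replicate 2 and 8 in replicate 1, where the shares over all 547 genes beside a member were 66.7% and 77.0%. The median log2 ratio of replicate 1 to replicate 2 was -0.67 in the 12 and 0.26 over all members, on the lists' own scales. This split was noticed after the values were seen. Replicate 1 was the higher in 0 of the 5 with starts up to 200 bp apart and in 2 of the 7 with longer intervals, and the median distance between starts was 289 bp in the 12 against 298 bp in all members.

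Of 34 listed genes for chromatin and insulator proteins with a partner, 8 flanked a member (23.5%, 12.4 to 40.0). Besides *Chro* there was *brm*, the ATPase of the Brahma remodelling complex, whose peak had 418, with 234 in replicate 1 and 191 in replicate 2. *E(z)*, the histone methyltransferase of the Polycomb system, had 275, with 170 and 116. *Cp190*, an insulator protein gene, had 248, with 149 and 88.7. *Ino80*, a remodeller gene, had 223, *His2Av*, the histone variant gene, 142, *pzg* 122 and *M1BP* 96.4. The median of these 8 was 236, against 129 over all genes beside a member. In both replicates' lists lay 6 of the 8, as did 55.4% of all genes beside a member. Chromatin genes beside a member that the name match missed were not counted, so the median depends on the names listed. Replicate 1 was the higher in 7 of these 8, the exception being *His2Av* at 64.0 and 70.8.

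**Figure D5:**
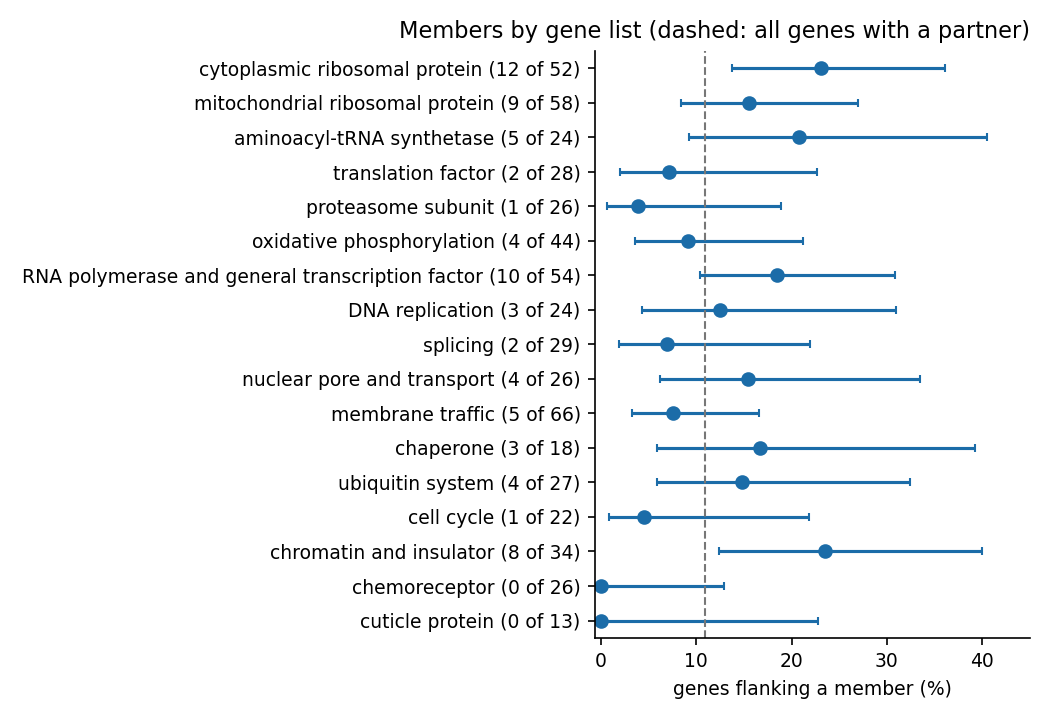
Share of genes with a divergent partner that flank a member (x, %), for the 17 lists with at least 10 such genes, with 95% Wilson intervals; counts stand beside each name. The dashed line is the 10.9% of all genes with a partner, and the intervals of 2 lists, cytoplasmic ribosomal proteins and chromatin and insulator, lie above it.

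Other lists of the translation machinery were mixed. Mitochondrial ribosomal protein genes had 9 of 58 (15.5%), with *mRpS10*, *mRpS23* and *mRpL23* among the strongest members and *mRpL20* next at 294. Aminoacyl-tRNA synthetase genes, whose enzymes load tRNAs, had 5 of 24 (20.8%, 9.24 to 40.5), led by *GluProRS* (167), *SerRS* (158), *IleRS* (149) and *ProRS-m* (104). Translation factors had 2 of 28 (7.14%), *eIF1* at 110 and *eRF3* at 93.1. The interval of each of these 3 lists contained the 10.9% of all genes.

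The list of genes of RNA polymerases, Mediator and general transcription factors had 10 of 54 (18.5%, 10.4 to 30.8). It did not hold *Ssl1*, whose peak had 738, or any other gene that the name match missed. *Taf5*, for a TFIID subunit, had 233, with 148 in replicate 1 and 78.2 in replicate 2. *MED27*, for a Mediator subunit, had 213, with 135 and 72.2. *Polr2H* and *Polr3E*, for subunits of RNA polymerases, had 136 and 134, and 3 of the 10 were in both lists, where the share over all genes beside a member was 55.4%. DNA replication genes had 3 of 24, of which *PolD2*, for a subunit of DNA polymerase δ, had 363, and *RPA1* and *Mcm2* shared a peak of 83.9. The splicing list had 2 of 29, *U2af50* (174) and *Sf3b6* (98.2), and splicing genes that the name match missed were not counted.

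For genes of transport and protein turnover, the interval of each list contained the 10.9% of all genes. Nuclear pore and transport genes had 4 of 26, namely *Nup37*, *Tnpo-SR* (115), *Tnpo* (98.2) and *Kap-alpha3* (97.4). Membrane traffic genes had 5 of 66 (7.58%), led by *alphaCOP*, a coat protein gene, with 303, then *Vps33B* (154), *Vps36* (100.8) and *Rab39* (87.6). Genes of the ubiquitin system had 4 of 27, which were *Fbxl4* (185), *Cdc16* (164), *Uba3* (150) and *Uba2* (123). Chaperone genes had 3 of 18, *DnaJ-H* (126), *Hsc70-4* (125) and *CCT8* (95.1).

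The oxidative phosphorylation list had 4 of 44 (9.09%). These 4 were for complex I: *ND-ASHI* (160), *ND-MWFE* (123), *ND-24* (116) and *ND-51* (92.4). Genes of other complexes that the name match missed, such as *levy*, were not counted. Proteasome genes had 1 of 26, *Rpn3* (133), and mitochondrial import genes 1 of 5, *Tom7* (87.7). The cell cycle list had 1 of 22, *Cdk12* (116), which the list took by its name and whose product is known as a kinase of RNA polymerase II. Its partner *SAK*, a gene for a centriole kinase, stood in no list. None (0) of 26 chemoreceptor genes and none (0) of 13 cuticle protein genes with a partner flanked a member, with upper Wilson bounds of 12.9% and 22.8%. Of 73 developmental transcription factor genes only 4 had a divergent partner, and 0 flanked a member. In all, 74 of the 547 genes beside a member (13.5%) stood in a list. In 4 members both genes did, namely *RpS27*–*Nup37*, *RpL28*–*eIF1*, *Sf3b6*–*Tnpo* and *RPA1*–*Mcm2*.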

How the data were processed

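Peak lists for 1 group of 2 biological replicates were used: per the labels, chromatin immunoprecipitation of Rough-eGFP from whole embryos, with assembly dm6. Which aligner and peak caller were used is not given in the sources used here. Each replicate, and the pair together, has a ranked list of candidates deposited by the authors and a list thresholded by the irreproducible discovery rate (IDR). The deposited columns used were the signal value per peak, whose normalization is not stated, the summit offset, and the q value, given as −log10 of q on a log10 scale. The ranked lists also hold the deposited −log10 of the IDR, at least 2.00 in the pooled thresholded list. A further 16 columns of single-replicate values in the pooled ranked lists could not be tied to a sample by any label and were left aside.

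Summits were placed against protein-coding transcript starts of Ensembl release 115 (19276 distinct starts of 13968 genes on the arms), and sequence came from RefSeq's Release 6 assembly, whose coordinates are those of dm6. Replicate overlap meant 1 bp or more. Shares carry 95% Wilson intervals and differences of shares 95% Newcombe intervals, which cover counting error only. No p-value was computed. Word windows reached 50 bp to each side of the summit. The members, the 8 words and the 19 gene lists were chosen with earlier results of these data known.

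Gene pairs were named by rule: the 15 strongest members, the 5 weakest, up to 4 per list by signal value, those nearest the 500 bp limit, the 3 shortest and 3 longest intervals, and pairs with more than 1 member; further members of the ribosomal protein and chromatin lists, and words' genes, were named after their values were seen. Sequences also left out members with another start inside the interval, a condition added later. Alternatives were the conservative list, stronger peaks, each replicate's list, other distance limits, most upstream starts, peak middles and wider windows. A q limit, the distance classes and their alternatives, dropping peaks that overlap a stronger candidate and leaving out intervals with another start were chosen after seeing the data. The counting was tested on simulated data. The tools were Python 3.11.15 with matplotlib 3.10.9, scipy 1.17.1, pandas 2.3.3 and numpy 2.4.6.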

Additional observations from a re-analysis of the deposited data

How the results depend on the processing

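With 1 group, no paired analysis was possible because no groups were compared. Members numbered 179 among peaks at or above the median signal, 177 with each start within 250 bp and 170 at q of at most 0.05. There were 194 with most upstream starts and 200 to 220 in single-replicate lists. The signal difference to other promoter peaks was -4.89 in the stronger peaks and -3.93 at q of at most 0.05, 6.47 in the conservative list, 28.0 at 250 bp, 15.3 at 1000 bp, 8.97 with most upstream starts, 10.4 without overlapping peaks, 11.1 with no other start between, and 4.32 to 5.26 in single-replicate lists. The cause was not tested. The both-replicate difference was 14.7 points at 250 bp; its interval left out 0 there, at 1000 bp and with summits within 100 bp. Leaving out a replicate gives no value for it. Divergent pairs with a peak were 6.25% in stronger peaks, 6.05% at q of at most 0.05 and 7.29% to 7.61% in single-replicate lists, and the excess of pairs above 200 and up to 400 bp over shorter ones was 9.38, 8.82 and 9.88 to 12.1 points. The median distance between starts was 264 bp at 250 bp, 331 bp at 1000 bp and 290 to 295.5 bp in single-replicate lists. The middle part of the interval held 60.3% in stronger peaks, 60.6% at q of at most 0.05, 67.8% at 250 bp, 46.1% at 1000 bp and 44.5% to 62.7% in single-replicate lists. The TATCGATA difference was -0.542 at 250 bp, 5.20 in wider windows and 0.890 to 2.40 in single-replicate lists. Of 77 values under an alternative, 46 stayed within the main value's interval or tolerance. Depth is unknown, so weak members cannot be set against sampling noise.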

Other observations

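All 7-letter words were counted in the windows of 50 bp to each side of the summit after the other values had been seen, and the 10 words with the largest excess in members over the middle of peakless divergent pairs were kept. Words picked for their excess lie high by that choice, so the values are a description with no test. AAATTAA, or TTAATTT on the other strand, stood in 69 of 269 members (25.7%), against 13.8% of 1852 peakless pairs and 14.3% of 538 other promoter peaks. CAAATTA, or TAATTTG, stood in 36 members (13.4%), 5.24% of peakless pairs and 5.02% of other promoter peaks. In the 57 members in the list of replicate 1 alone, AAATTAA stood in 31.6% and CAAATTA in 10.5%, and in the 31 in that of replicate 2 alone, each stood in 12.9%. The remaining 8 words were also rich in A and T, and many overlap each other. The peakless pairs in this scan were not matched to the members in spacing or in the distance of the window from a start. Their mean A/T content was 68.3%, against 70.3% in members. In the peakless pairs more than 200 and up to 400 bp apart it was 71.3%. These words were not counted at matched spacing, so the part of A/T content in their excess was not tested.

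Signal value and spacing were loosely related within the members. Spearman's rank correlation over 269 members was -0.17 between signal value and distance between starts, 0.14 between signal value and distance to the nearer start, and 0.20 between signal value and A/T content. These points share the same 2 libraries, and the values are descriptions.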
